A study of Saccharomyces cerevisiae with 4 samples.

Results

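This account concerns 48 budding yeast genes whose products export, package or form the 3′ end of messenger RNA, and asks how their own transcripts were represented in RNA precipitated with Mex67. The genes were taken from a fixed list by symbol, with no filter on measured values, and fall into 8 role classes. The list itself was chosen with earlier results of these data known. Of the 48, 47 named at least 1 spot (the exception was SUS1) and 45 had a value on at least 1 array (FIP1 and PTA1 had spots but no value), out of 5583 genes named on the arrays and 5243 with a value. The series has 4 two-channel arrays, all of 1 group. On each, cDNA of RNA precipitated with zz-tagged Mex67 was set against cDNA of RNA precipitated with the zz tag alone, where zz is an immunoglobulin-binding domain derived from protein A. Replicate 1 lies on one platform and replicates 2, 3 and 4 on another. The zzMex67 precipitate was in channel 1 on replicates 1, 3 and 4 and in channel 2 on replicate 2, whose sign was therefore turned. The labels do not name the strain, the growth medium or whether the tagged protein replaced the normal one, nor whether the arrays came from separate cultures. P-values therefore rest only on the spread between arrays, pooled over genes, which may be technical.

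In yeast, a messenger RNA leaves the nucleus bound to the heterodimer of Mex67 and Mtr2, which moves it through the channel of the nuclear pore. Mex67 binds RNA poorly by itself and is brought to the transcript by adaptors such as Yra1, Npl3 and Nab2, loaded during transcription by the THO complex, the helicase Sub2 and the machinery that cuts and polyadenylates the 3′ end. At the cytoplasmic face of the pore the helicase Dbp5, with Gle1, strips Mex67 off again. Several of these factors are known to control their own transcripts: Yra1 through its inefficiently spliced intron, Nab2 through a stretch of A in its 3′ region, and Nrd1 through early termination on its own gene.

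Every value below is a log2 ratio of one array minus the median of all genes of that array, so 0 is the middle gene and 1 is 2-fold above it. It compares 2 precipitates and is not a level of the transcript in the cell. The labels name the zzMex67 precipitate first and put it in channel 1 on most arrays, so a positive value likely stands for more RNA with zzMex67. The files do not settle this, and values are described as above or below the array median. The members were measured unevenly. Replicate 1 had values for 35 of the 47 genes (74.5%, against 79.0% of all genes), replicate 2 for 2 (4.26% against 9.46%), replicate 3 for 23 (48.9% against 41.2%) and replicate 4 for 21 (44.7% against 43.7%). Only DBP2 and NAB3 had a value on all 4 arrays, MTR2, NPL3, DBP5 and PTI1 on 3, 22 members on 2 and 17 on 1. On replicate 3, 21 of its 23 measured members lay in the last 6400 spots of the table, of which 63.4% had a value, against 8.59% of the first 6400. The SD between the 2 spots of a gene, pooled over genes, was 0.97, 0.81, 0.83 and 0.55 on replicates 1 to 4, and the SD over all genes was 1.68, 1.76, 1.83 and 1.44. The 2 spots of a member are neighbours in spot order on replicates 2 to 4 and lie apart on replicate 1. The SDs between spots are therefore not alike on the 2 platforms.

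As a set, the transcripts of the export and 3′-end factors lay around the middle of each array. Their median was -0.21 on replicate 1 (14 of 35 above the array median), 0.12 on replicate 3 (15 of 23 above) and 0.08 on replicate 4 (11 of 21 above). On replicate 1, 8 of 35 were 2-fold or more above the median (26% of all 4409 genes were) and 4 were 2-fold or more below (21.1% of all genes). On replicate 3 the counts were 9 and 5 of 23 (28.9% and 21.9% of all 2280 genes), and on replicate 4 they were 5 and 4 of 21 (22.5% and 17.4% of all 2421 genes). The spread over members was 1.32 (SD) on replicate 1, 2.06 on replicate 3 and 1.92 on replicate 4.

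**Figure D1:**
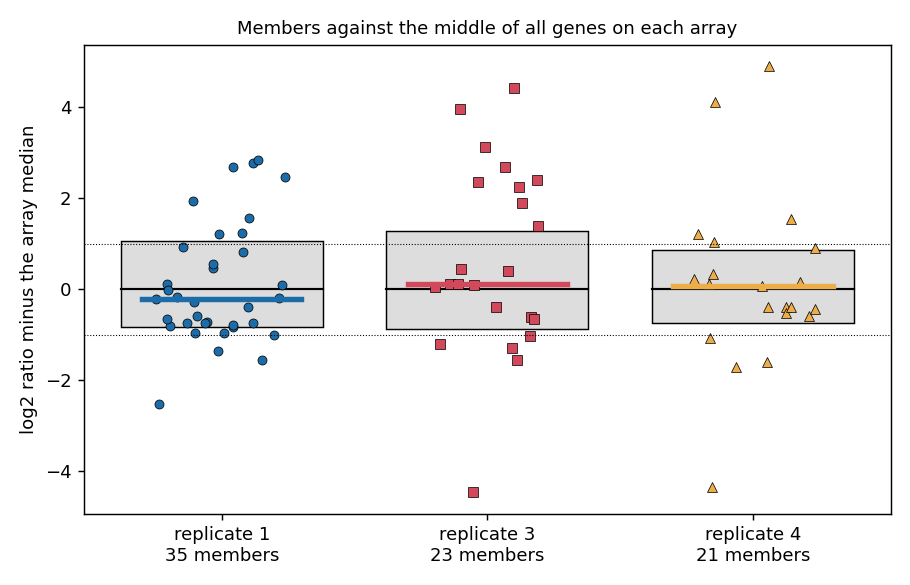
Log2 ratio minus the array median (vertical axis) of each member on replicates 1, 3 and 4, one point per gene. Grey boxes span the middle 50% of all genes with their median as a black line, coloured lines are the medians of the members (-0.21, 0.12 and 0.08), and dotted lines mark 2-fold. The members' medians sit close to 0 and single genes reach from -4.47 to 4.91.

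The tagged protein's own transcript was near the middle of both arrays that measured it. MEX67 had 0.11 on replicate 1, above 52.9% of the genes of that array, and -0.40 on replicate 4, above 37.1%, with no value on replicates 2 and 3. These are differences of 1.08-fold and 1.32-fold, in opposite directions, and the value of replicate 4 rests on 1 of its 2 spots. With runs of 400 neighbouring spots centred MEX67 had -0.16 and 0.01, so both signs changed. MTR2, which encodes the small partner subunit of the receptor, had -0.74, 2.68 and 0.34 on replicates 1, 3 and 4. Its value on replicate 1 rests on 1 of its 2 spots and was -1.04 with that centring. The single high value, on replicate 3, came from 2 spots that differed by 1.52, and it was 1.37 after runs of 400 neighbouring spots were centred. Its 2 deposited values there were also held by other spots of that array to every deposited decimal (19 and 3 spots in all). Such shared values made up 31.5% of the spots with a value on replicate 3 and 20 of its 42 member spots, against 0 of 41 member spots on replicate 1 and 0 of 34 on replicate 4, and the part they play in the ratios was not tested.

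The THO complex couples transcription to export, and with Sub2 and Yra1 it forms TREX. Its transcripts showed no common direction. HPR1, which encodes a THO subunit, was below the array median by over 2-fold on both arrays that measured it, with -1.55 on replicate 1 and -1.08 on replicate 4. THP2, another THO subunit gene, had -0.02 and -0.53 on the same arrays, while MFT1, also of THO, had 2.69 and -0.39 and TEX1, which encodes a TREX component, had 0.47 and 0.08. HPR1 was thus low on both arrays and MFT1 high on 1 of them. With runs of 400 neighbouring spots centred, HPR1 had -0.32 and -0.77, and with runs of 480 it had -2.12 on replicate 1. THO2, the gene of the largest THO subunit, was measured on replicate 3 alone, at 0.44. SUB2, the gene of the helicase that loads Yra1, had 2.26 on replicate 3, but its 2 spots differed by 3.70 and the value was 0.03 with runs of spots centred. The adaptor gene YRA1, whose mRNA carries an intron, had 1.22 on replicate 1 and -1.57 on replicate 3, on opposite sides of the median. Its relative YRA2 had -0.17 and 0.10 there. The YRA1 spot of replicate 1 is among the first 1440 spots of that array, whose median lay 1.36 below the array's gene median, and its value became 3.01 with runs of 400 spots centred and 2.72 with runs of 480.

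TREX-2, which tethers active genes to the pore, was seen through 3 of its 4 genes. The scaffold gene SAC3 had 1.03 and THP1, the gene of a subunit bound to it, -0.58 on replicate 4, the only array with either. CDC31, a centrin gene whose product also serves the spindle pole body, had 2.78 on replicate 1 and -0.62 on replicate 3. Of the cap-binding complex, which coats the 5′ end of nuclear transcripts, CBC2 had 1.95 on replicate 1 and 2.37 on replicate 3, over 2-fold above the median on both. Its partner STO1 had 0.09 on replicate 1, a difference to CBC2 of -1.86 on that array. The CBC2 value on replicate 3 comes from 2 spots that differed by 2.14 and whose values 3 and 19 spots of that array share, one of them with MTR2, and was 1.37 with runs of spots centred.

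Transcripts of the RNA-binding proteins that travel with mRNA lay mostly below the median on replicate 1, by less than 2-fold. There 5 of 6 were below it, at -0.97 for HRP1, -0.83 for PUB1, -0.81 for NPL3, -0.73 for NAB6 and -0.72 for NAB2, and HRB1 was at 0.56. With runs of 400 or 480 spots centred 4 of 6 were below, NPL3 having moved to 0.10 or 0.58. HRP1, which encodes a shuttling protein that also belongs to the 3′-end cleavage machinery, was the member of this class that lay on 1 side on both arrays that measured it, with -1.29 on replicate 3. NPL3, the gene of an SR-like adaptor for Mex67, had 0.40 and 0.16 on replicates 3 and 4, and 0.83 and 0.02 with runs of spots centred. NAB2, the gene of the poly(A)-binding protein that limits tail length, had 0.11 on replicate 4. GBP2, the paralogue of HRB1, was measured on replicate 3 alone, at -1.04, so the pair was never seen on the same array. The GBP2 value rests on 1 of its 2 spots and was -0.72 with runs of spots centred. No member of this class was 2-fold above the median on any array.

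Among the genes of helicases and their cofactors, DBP5 was above the median on every array that measured it and DBP2 reached the highest value of any member. DBP5, whose product removes Mex67 at the cytoplasmic side of the pore, had 1.23, 1.89 and 0.91 on replicates 1, 3 and 4, above 77.3%, 83.5% and 76.3% of the genes of those arrays. Along with NAB3 it was 1 of 2 members above the median on each of replicates 1, 3 and 4, out of 6 measured on all of them (19.2% of all 725 such genes were), and 0 of the 6 were below on each (9.24% of all genes). Its 2 spots on replicate 3 had -0.18 and 3.96, a difference of 4.14. With runs of 400 spots centred its values were 0.84, 0.57 and 0.69. With that centring NAB3 had -0.12 on replicate 1, so DBP5 and NPL3 were the 2 members above on each array (19.3% of all genes). With runs of 480 spots on replicate 1 NAB3 had 0.06 there, and these 3 members were above on each (19.0% of all genes). DBP2, the gene of a DEAD-box helicase that acts on nascent mRNA and carries a long intron, had -0.39, 1.21, 1.39 and 4.91 on replicates 1 to 4. On replicate 4 it was 30.1-fold above the median, with 1 of 2421 genes higher, and its 2 neighbouring spots there differed by 0.35. Replicate 4 thus stands well above the other arrays for DBP2, and replicate 1 lies on the other side of 0. With runs of spots centred the 4 values were -1.33, 0.39, 0.08 and 4.70. GLE1, which encodes the activator of Dbp5, had -0.28 and 0.05 on replicates 1 and 3, or 1.51 and 1.84 below DBP5 on the same arrays. Its spot on replicate 1 also lies among the first 1440, and with runs of 400 spots centred it had 1.50 there, above the 0.84 of DBP5, while with runs of 480 it had 1.21, below the 1.31 of DBP5. GFD1, the gene of a Dbp5-binding protein, had -1.61 on replicate 4, below all but 6.28% of genes. With runs of 400 spots centred its value there was -0.81.

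The largest class, cleavage and polyadenylation, lay mostly below the median on replicate 1. There 9 of 12 measured genes were below it, with a median of -0.69, and the same count was below with runs of 400 or 480 spots centred (medians -0.75 and -0.84). The lowest was REF2, a gene of the Pti1- and Glc7-containing module, at -2.53. REF2 lies among the first 1440 spots and had -0.75 or -1.04 with runs centred. Next were PFS2 at -1.36, YSH1, the endonuclease gene, at -1.02, and RNA14 at -0.97. The 3 genes above the median were YTH1 at 2.85, PCF11 at 2.48 and GLC7 at 1.57, which encode an RNA-binding zinc finger subunit, a scaffold of cleavage factor IA and a protein phosphatase. None of the 3 was above the median on the second platform, where YTH1 had -1.20 (replicate 3), PCF11 -0.43 and GLC7 -1.71 (both replicate 4). The remaining members measured on replicate 1 were PAP1, the poly(A) polymerase gene, at -0.21, RNA15 at -0.58, SSU72 at -0.65, PTI1 at -0.74 and CFT2 at -0.79.

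On replicate 3 the same class held both the highest and the lowest member. MPE1, which encodes a zinc knuckle subunit, had 4.43 on replicate 3, with 20 of 2280 genes higher, but 0.22 on replicate 4. PTI1 had 3.97 and 1.22, and CFT2, a gene of the endonuclease's inactive relative, had 3.12 on replicate 3. All 6 spots behind these 3 values on replicate 3 carry values found on other spots too. The higher spot of MPE1 and that of PTI1 held the same value there, 5.12. The 3 ratios became 3.12, 1.86 and 1.02 with runs of spots centred. In the other direction, RNA15, whose product reads the A-rich signal upstream of the cut, had -4.47 on replicate 3, a 22.1-fold difference that rests on 1 of its 2 spots and was -4.49 with runs centred. CLP1, of the same cleavage factor, had -0.65 on replicate 3. CFT1, which encodes the largest subunit of the cleavage and polyadenylation factor, had 1.54 on replicate 4 (1.89 with runs centred), and PFS2 had -0.39 there. Of the 8 members of this class with at least 2 values on replicates 1, 3 and 4, 5 had both signs (62.5%). Among all 3162 genes with as many values there, 54.0% had both signs.

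Nrd1 and Nab3 form a heterodimer that ends short noncoding transcripts and hands them to the exosome, and their 2 transcripts were at opposite ends of replicate 4. NAB3 had 4.13 there, with 10 of 2421 genes higher, and NRD1 had -4.36, below all but 0.702% of genes. NRD1 minus NAB3 was -8.48 there, while the 2 spots of NAB3 differed by 0.51 and those of NRD1 by 0.16. The 2 spots of each gene are neighbours in spot order, so their agreement does not measure differences between places on the array. On replicate 3 the order was the other way, with 2.41 for NRD1, from 1 spot whose value 8 spots of that array share, and 0.12 for NAB3. With runs of spots centred they were 0.30 and 0.44 there, and NRD1 was no longer the higher. NAB3 had 0.82 and -0.92 on replicates 1 and 2. A NAB3 value far above the median and an NRD1 value far below it were seen on replicate 4 alone, where runs of spots centred gave 2.99 and -4.10. RRP6, the gene of the nuclear exosome's exonuclease, stayed near the median at -0.19 and -0.38 on replicates 1 and 3, and MTR4, the gene of its helicase, had 0.93 and 0.10.

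**Figure D2:**
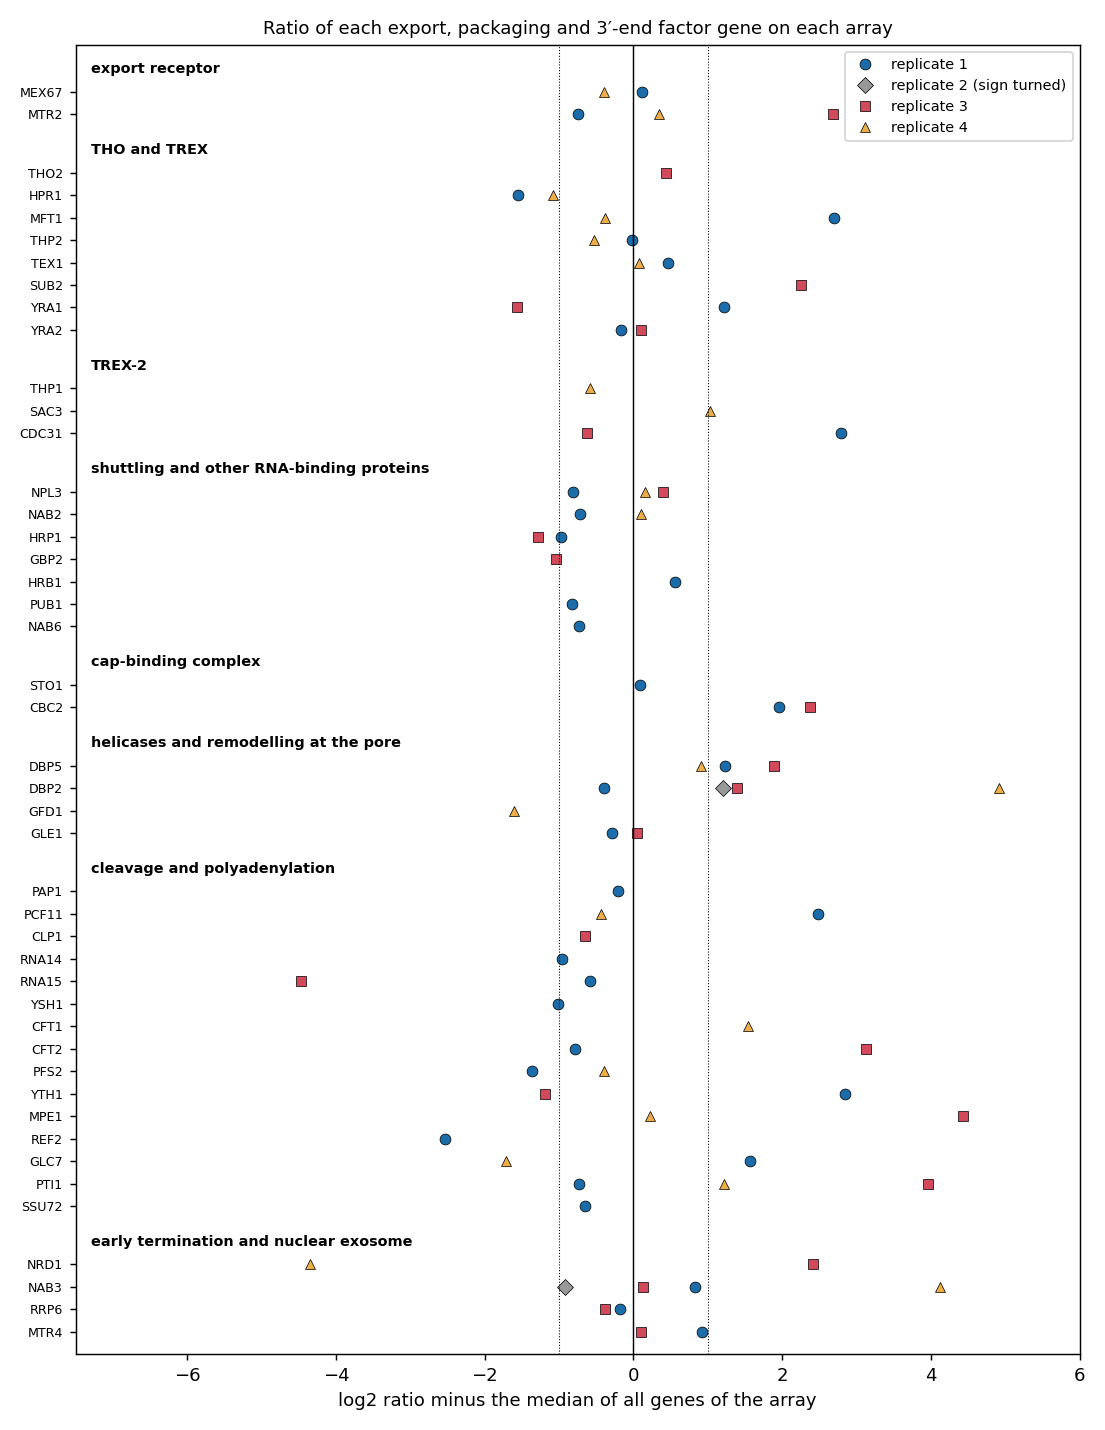
Log2 ratio minus the array median (horizontal axis) of the 45 members with a value, in rows by role class. Circles, diamonds, squares and triangles are replicates 1 to 4 (replicate 2 with its sign turned), the solid line is the array median and dotted lines mark 2-fold. Most genes have 1 or 2 points, and those with points far out (DBP2 at 4.91, NAB3 at 4.13, NRD1 at -4.36, MPE1 at 4.43, RNA15 at -4.47) have them on 1 array.

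The test within the second platform called none of these genes. Limma was fitted to the 1212 genes with a value on at least 2 of replicates 2, 3 and 4, and 0 passed an adjusted p of 0.05 (0% of them), with 57 under 0.05 before adjustment. The 8 members among them also gave 0 calls, and 2 of them, DBP2 and PTI1, had an unadjusted p under 0.05, both above the median, as had 27 of all 1212 genes in that direction (2.23%). The fit gave each member with 3 values a standard error of 1.04 and each with 2 values one of 1.27, whatever its own spread. These standard errors and the p-values thus do not measure the spread of a single gene between arrays. DBP2 had a mean of 2.50 with a standard error of 1.04 over 3 arrays (limma, adjusted p = 0.791). Without replicate 4 its mean was 1.30. PTI1 had 2.59 with a standard error of 1.27 over replicates 3 and 4 (limma, adjusted p = 0.959). NAB3 had 1.11 with a standard error of 1.04 over 3 arrays and changed to -0.40 without replicate 4.

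The 5 other tested members entered the fit with replicates 3 and 4 only, and had adjusted p-values of 0.998 in limma. MPE1 had a mean of 2.32 ± 2.98, MTR2 1.51 ± 1.65, DBP5 1.40 ± 0.69, NPL3 0.28 ± 0.17 and NRD1 -0.97 ± 4.78 (SD, n = 2). For NRD1, MPE1 and MTR2 the spread between the arrays is larger than the mean itself. Of the 8 members measured on both arrays, 7 were above the median on both (34.5% of all 923 such genes were) and 0 below on both (16%), NRD1 being the exception. The spots of MPE1, MTR2, DBP2 and DBP5 lie close together (spots 9403 to 9524). With runs of spots centred, these genes fell to 3.12, 1.37, 0.08 and 0.57 on replicate 3, and PTI1 fell to 1.86. NPL3 and NAB3 rose there to 0.83 and 0.44. The count above on both stayed at 7, but MPE1 and NPL3 had only 0.001 and 0.02 on replicate 4. The 1212 genes tested had a median of 0.28, and the genes tested without replicate 4 one of -0.05.

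**Figure D3:**
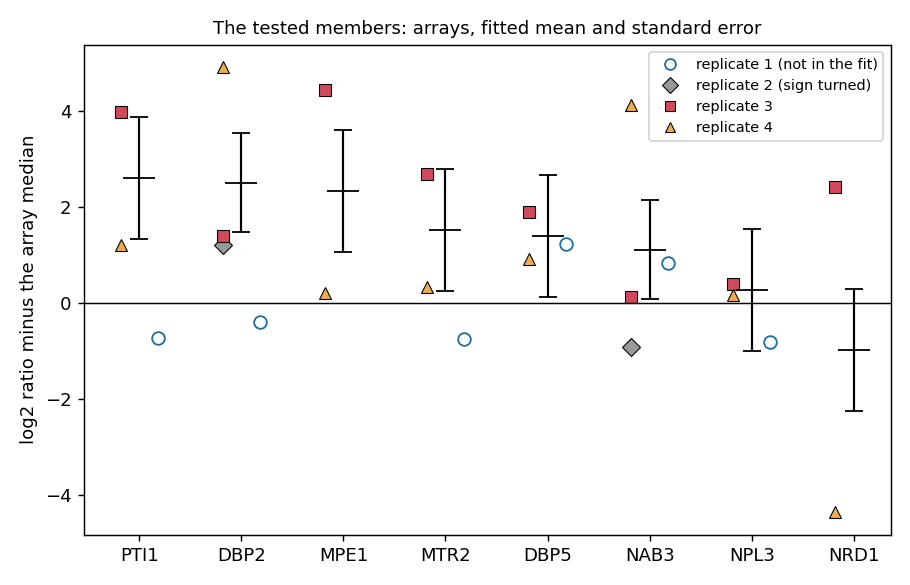
Log2 ratio minus the array median (vertical axis) of the 8 members tested. Filled symbols are the arrays in the fit, open circles are replicate 1, which is on another platform and not in the fit, and black bars are the fitted mean with its standard error. The standard errors are 1.04 for members with 3 values in the fit and 1.27 for those with 2, whatever the spread of the gene itself. PTI1, DBP2, MTR2 and NPL3 lie below 0 on replicate 1.

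Between arrays, the side of the median on which a member lay mostly did not repeat, about as often as for all genes. Of 28 members with at least 2 values on replicates 1, 3 and 4, 6 were above the median on each (22.8% of all 3162 such genes were), 6 below on each (23.2%) and 16 had both signs (57.1%, against 54.0% of all such genes). Those above were CBC2, DBP5, MPE1, MTR4, NAB3 and TEX1, and those below HPR1, HRP1, PFS2, RNA15, RRP6 and THP2. Some of these sides are averages of 2 spots that disagreed. On replicate 3 the spots of DBP5 had -0.18 and 3.96 and those of MTR4 -0.98 and 1.17, and on replicate 4 those of TEX1 had -0.63 and 0.79. For the other named genes, spots measured on the same array lay on the same side. With runs of 400 spots centred NAB3 and TEX1 left the first group and GLE1 and NPL3 joined it, while the second kept its 6 genes. With that centring 23.6% of all such genes were above on each and 22.9% below on each. With runs of 480 spots on replicate 1, NAB3 stayed in the first group, which then held 7 members (23.4% of all such genes). Across the 17 members shared by replicates 1 and 3, the correlation was -0.16 (Spearman's rho -0.24), and across 15 shared by replicates 1 and 4 it was -0.08 (rho -0.10). All genes gave 0.06 and 0.08 on these pairs. Across the 8 members shared by replicates 3 and 4 it was -0.36 (rho -0.29), against -0.02 over all genes. These correlations are across genes that share an array, and describe them only. The median size of the difference was 1.21 over members and 1.51 over all genes between replicates 1 and 3, 0.97 and 1.35 between 1 and 4, and 3.13 and 1.61 between 3 and 4.

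**Figure D4:**
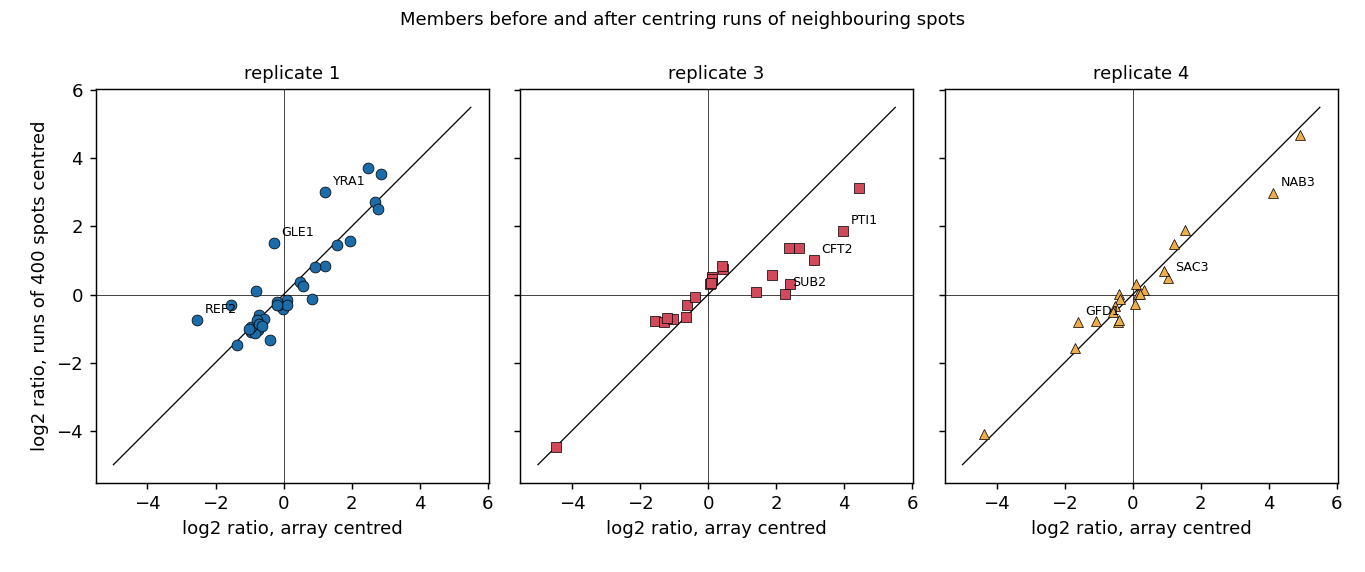
Log2 ratio of each member with the array centred as a whole (horizontal axis) and with every run of 400 neighbouring spots centred (vertical axis), for replicates 1, 3 and 4. Points on the diagonal did not move. The 3 members that moved most are named on each array; on replicate 3 members high at first, such as SUB2 (2.26 to 0.03) and CFT2 (3.12 to 1.02), came closer to 0, and on replicate 1 YRA1 (1.22 to 3.01) and GLE1 (-0.28 to 1.50) moved up.

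A list of 37 other genes of export, RNA end formation and nuclear decay gave no call either and had medians of -0.20 (29 measured), -0.55 (10 measured) and 0.01 (20 measured) on replicates 1, 3 and 4. On replicate 1, 5 of its 29 genes were 2-fold above and 9 were 2-fold below the median (26% and 21.1% of all genes). With runs of 400 spots centred the counts were 4 and 6 (25.5% and 17.0% of all genes). On replicates 3 and 4 together 6 of its genes were measured, of which 1 was above the median on both (34.5% of all such genes). This was SEN1, the helicase gene that works with Nrd1 and Nab3, with 2.41 and 1.02, but -1.35 on replicate 1. The lowest mean of the 3 below on both belonged to SKI6, an exosome core gene, with -0.55 and -1.77, and 0.53 on replicate 1. TOM1, which encodes a ubiquitin ligase needed for normal mRNA export, had -0.62 and -0.95 on replicates 3 and 4 and no value on replicate 1.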

How the data were processed

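The deposited tables hold 1 log10 ratio per spot, between the channels of an array. The base was read from the values. Undone with base 10, up to 15.5% of an array's spots gave a ratio of whole numbers (denominators up to 50, tolerance 2e-08). With base 2 the share was 0.152% at most. On replicate 1 the shares were 0.259% with base 10 and 0% with base 2, so its base is less certain. What the authors did before depositing them (dyes, numerator, background correction, the filter behind empty spots) is not given in the sources used here. Depth does not apply to arrays, and their number limits the precision. Spots were named from the platform annotation. Ratios were converted to log2, spots of a gene averaged and each array centred on its gene median (Python 3.11.15, pandas 2.3.3). Replicates were numbered in accession order. Limma 3.58.1 (R 4.3.3, lmFit and eBayes, intercept, Benjamini-Hochberg) was fitted to replicates 2, 3 and 4, on genes with at least 2 values. In a run on simulated data, recovery of moved genes was required only at a spread below that of these arrays. Its power at their own spread is not given here, so the absence of calls does not show that no gene differed. Arrays of different platforms were joined by gene in 2 alternatives and otherwise described side by side. The members, lists and tests were chosen with earlier results of these data known. Naming took all members with values on several arrays and each class's extremes, with the highest and lowest of the other export list. Alternatives covered signs, centring, scaling, spots and arrays.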

Additional observations from a re-analysis of the deposited data

How the results depend on the processing

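Under the 14 alternatives to the limma fit the calls stayed at 0 genes and 0 members, also with replicate 2, 3 or 4 left out. The range over those left-out fits was 0 to 0 for both counts. Among the means, that of NAB3 turned to -0.40 without replicate 4 and was 2.12 and 1.61 without replicates 2 and 3, and that of NPL3 turned to -0.086 both with all 4 arrays and with replicates 1, 3 and 4. NAB3 had 1.72 and DBP2 1.70 with replicate 2 as deposited. With runs of 400 spots centred, the members' median on replicate 3 was 0.30. Its counts at 2-fold were 5 above and 1 below (18.8% and 18.6% of all genes with that centring). On replicate 4, 2 were below (15.0% of all genes). The shares over all genes thus fell too. With runs of 480 spots on replicate 1, chosen after seeing the data, 8 were below (17.6% of all genes). With only genes of at least 2 spots, replicate 1 had a median of -0.67 (6 members, 1 above and 2 below at 2-fold), replicate 3 of 0.33 (2 below) and replicate 4 of -0.23 (3 above and 2 below), where fewer members remained. The count above the median on replicates 3 and 4 was within 1.5 times under each alternative. Quantile normalization gave no value for replicate 1, the single array of its platform. The cause of these shifts was not tested. Both precipitates share each array, so each ratio is itself a paired comparison. With 1 group, no further pairing between arrays was possible. The files give no intensities, so dim spots were not filtered and signal over background is unknown.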

Other observations

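Genes of nucleoporins and karyopherins, the pore and its transport receptors, had medians of -0.16 (37 measured), -0.06 (15 measured) and 0.05 (25 measured) on replicates 1, 3 and 4. Genes of spliceosome components had -0.44 (53 measured), -0.23 (25 measured) and -0.13 (25 measured). On replicate 1, 16 of the 53 spliceosome genes were 2-fold or more below the array median and 6 above, beside 21.1% and 26% of all genes. With runs of 400 spots centred 11 were below (20.8%, against 17.0% of all genes) and 7 above (13.2% against 25.5%). These lists were not tested.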
